A study of Mus musculus with 79 samples.

Results

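Plagl1 and Hymai are an overlapping pair of genes on mouse chromosome 10, and they were read here across all 3 RNA-seq experiments of a study of promoter contacts during retinoic acid (RA) differentiation of mouse embryonic stem cells. The members are the deposited rows named Plagl1 (NM_009538) and Hymai (NR_131912), 2 of 19526 genes with reads in the E14 table, 2 of 19482 in the clone table and 2 of 21193 in the SCC1-mAID table. They were chosen by their levels in the clones: both were strongly lower in both deletion clones than in the wild-type clone after RA. That difference is therefore given below as a description without a test, as is the difference between the deletion clones, while the E14 cells, the SCC1-mAID cells and the untreated clones were tested.

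The first experiment measured total RNA of wild-type E14 embryonic stem cells before RA (2 libraries), after 2, 4, 6, 48 and 72 h of 1 uM RA (4 libraries each) and after 24 h (3 libraries); the last time is 72 h in the sample titles and 74 h in the sample characteristics. The second measured nuclear RNA of clones E3 and H12, which share the genotype E14;HoxTransEdel (deletion of a transient enhancer in the Hoxb locus, on another chromosome), and of clone G4 with the genotype E14;HoxTransEwt, before RA and at 2, 4, 6, 24, 48 and 74 h (2 libraries per clone and time). Each deletion line is 1 clone and the wild type is 1 clone, so the deletion and the history of a clone cannot be told apart. The third measured nuclear RNA of the line E14;Rosa26::Tir1;Scc1-mAID-eGFP, in which auxin (IAA) degrades the cohesin subunit SCC1 through the plant receptor Tir1, in 3 libraries each without treatment, after 4 h of RA, after 6 h of 500 uM auxin, and after both treatments together. Libraries held 2352114 to 21082331 reads in the E14 table, 4754309 to 10450047 in the clone table and 3126363 to 7499040 in the SCC1-mAID table. The deleted element is not a gene, and auxin acts on the SCC1 protein, so no RNA level checked either label. In bulk RNA, fewer cells that express a gene and less RNA per cell cannot be told apart.

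Plagl1, also called Zac1, encodes a zinc finger transcription factor that restrains cell growth and is linked to a network of imprinted genes in the embryo. It is imprinted: the maternal copy of its promoter is methylated, and RNA comes mainly from the paternal copy. Hymai is a long non-coding RNA that starts at the same imprinted promoter and is read in the same direction.

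In the deposited tables (mm10) Plagl1 spans chromosome 10 from 13090788 to 13131695 on the plus strand, and Hymai spans 13090845 to 13095900 on the plus strand, with starts 57 bases apart. The Hymai span of 5056 bases lies wholly inside the Plagl1 span of 40908 bases and makes up 12.4% of it. The Plagl1 transcript has 6 exons in GENCODE M21, of which 1, exon 1, touches the Hymai span, by 180 bases. The authors' deposited table classes Plagl1 as induced and Hymai as stably inactive, and gives 24 h as the induction time of both.

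The promoter is shown because both genes start in it and their levels are compared throughout. The RefSeq promoter window of Plagl1 (300 bases, GRCm38.p6, plus strand, chr10:13090582-13090881) covers the deposited starts of both genes, and the RefSeq window of Hymai is the same sequence shifted by 13 bases, with 287 bases shared. Capitals mark the single match to TGCCGC, the core motif of the imprint-keeping zinc finger protein Zfp57, which lies here on the minus strand.
Plagl1 promoter: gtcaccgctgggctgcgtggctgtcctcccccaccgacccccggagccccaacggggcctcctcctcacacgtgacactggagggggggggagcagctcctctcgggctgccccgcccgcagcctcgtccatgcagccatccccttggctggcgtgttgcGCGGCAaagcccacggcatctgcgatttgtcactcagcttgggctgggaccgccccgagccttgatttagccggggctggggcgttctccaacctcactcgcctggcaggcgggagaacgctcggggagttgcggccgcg
The window holds 26 CpG dinucleotides and is 70.7% G and C, against medians of 7 and 52.7% over 32817 RefSeq promoters of the same length, 16.9% of which hold as many CpGs. TGCCGC was searched on both strands and occurs in 11.6% of those promoters. The letters AGGTCA (a nuclear receptor half-site, found in 16.3% of promoters on either strand) and GGGGCCCC (a GC-rich motif bound by Plagl1, 1.07%) are not in this window.

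In E14 cells Plagl1 exonic RNA was low before RA and rose at 24, 48 and 72 h. In CPM (a gene's reads as a share of the library's reads, after scaling by edgeR's TMM factors), the 2 untreated libraries held 1.19 and 1.15 CPM. The 4 libraries at 2 h held 1.05 to 1.22 CPM, those at 4 h 0.893 to 2.06 CPM and those at 6 h 1.46 to 1.68 CPM. These early levels were close to the untreated ones, and the libraries at 4 h overlapped all the other early groups. At 24 h the 3 libraries held 5.08, 2.53 and 2.86 CPM, at 48 h the 4 libraries held 7.31, 8.15, 12.02 and 9.10 CPM, and at 72 h they held 18.4, 23.1, 54.7 and 48.3 CPM. From 24 h on no library overlapped those of the time before. Ordered by group mean, the levels ran from 2 h (1.11 CPM ± 0.0785, SD, n = 4) and 0 h (1.17 ± 0.0316, n = 2) through 6 h (1.55 ± 0.0983, n = 4), 4 h (1.72 ± 0.554, n = 4), 24 h (3.49 ± 1.39, n = 3) and 48 h (9.14 ± 2.05, n = 4) to 72 h (36.1 ± 18.1, n = 4).

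Each step was tested with edgeR's quasi-likelihood test over 15084 genes, and a gene was called at a Benjamini-Hochberg adjusted p under 0.05. The log2 fold change of Plagl1 against 0 h was -0.06 (SE 0.43, adjusted p = 1) at 2 h, 0.55 (SE 0.41, adjusted p = 0.745) at 4 h and 0.39 (SE 0.42, adjusted p = 0.775) at 6 h, none of them called, where 0.497%, 2.44% and 3.96% of genes were called. Plagl1 was 2.997-fold higher at 24 h (log2 1.58, SE 0.45, adjusted p = 0.0103, edgeR), a time at which 14.1% of all genes tested were called higher. It was 7.76-fold higher at 48 h (log2 2.96, SE 0.40, adjusted p = 9.0e-07, edgeR; 28.9% of genes called higher). It was 30.4-fold higher at 72 h (log2 4.93, SE 0.40, adjusted p = 1.6e-10, edgeR; 30.4% of genes called higher). The 24 h call against 0 h rests on single libraries: the adjusted p was 0.0507 and 0.0732 without untreated replicate 3 or 4, and 0.104 without 24 h replicate 1.

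Between successive times Plagl1 rose by 1.19 from 6 to 24 h (log2, SE 0.41, adjusted p = 0.0359, edgeR), by 1.37 from 24 to 48 h (SE 0.37, adjusted p = 0.00874) and by 1.97 from 48 to 72 h (SE 0.28, adjusted p = 1.0e-04), where 11.9%, 11.1% and 6.38% of genes were called higher. The first of these steps lost its call without 6 h replicate 1, 3 or 4 (adjusted p = 0.0617, 0.0787 and 0.0524) and without 24 h replicate 1 or 4 (adjusted p = 0.272 and 0.0514), and the second without 24 h replicate 3 (adjusted p = 0.0546). With the authors' size factors in place of TMM, the share of calls that were higher went from 50.9% to 67.8% at 72 h against 0 h, from 50.3% to 69.6% from 6 to 24 h and from 51.2% to 85.7% from 48 to 72 h, and from 54.6% to 38.8% at 6 h against 0 h. The median of all genes at 72 h against 0 h moved from 0.00 to 0.27 and the log2 fold change of Plagl1 from 4.93 to 5.22, with every call of Plagl1 and Hymai in E14 cells as before. At 72 h replicates 1 and 2 were lower than replicates 3 and 4, and all 4 were above every library at 48 h.

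Hymai in E14 cells was read from few reads, 0 to 13 per library, so its early levels are poorly resolved. The untreated libraries held 2 and 1 reads (0.125 and 0.0478 CPM). The highest library reached 0.537 CPM at 2 h, 0.759 CPM at 4 h and 0.991 CPM at 6 h. At 24 h the 3 libraries held 1.21, 0.506 and 0.635 CPM, at 48 h the 4 held 2.44, 0.741, 2.53 and 0.791 CPM, and at 72 h they held 2.30, 4.12, 2.12 and 3.72 CPM. The libraries at 24 and 72 h did not overlap, while those at 48 h overlapped both. Against 0 h the log2 fold change was 1.78 (SE 0.89, adjusted p = 0.773) at 2 h, 2.17 (SE 0.86, adjusted p = 0.259) at 4 h and 2.20 (SE 0.87, adjusted p = 0.191) at 6 h by edgeR, none called. Hymai was called higher at 24 h (log2 3.03, SE 0.95, adjusted p = 0.0191, edgeR), at 48 h (4.08, SE 0.81, adjusted p = 1.3e-04) and at 72 h (4.93, SE 0.73, adjusted p = 2.0e-06). In fits of only the groups compared, Hymai fell under the filter on low counts at 24 and 48 h against 0 h. Those calls depend on its passing the filter through later libraries. At 72 h against 0 h it passed through the 72 h libraries themselves, with 7 to 13 reads each against 2 and 1 at 0 h. The p-values of Hymai at 24, 48 and 72 h are therefore weak support. The 24 h call was lost without untreated replicate 4 (adjusted p = 0.145) and without 24 h replicate 1 (adjusted p = 0.122). No successive step of Hymai was called: 0.83 from 6 to 24 h (SE 0.74, adjusted p = 0.447), 1.05 from 24 to 48 h (SE 0.69, adjusted p = 0.283) and 0.85 from 48 to 72 h (SE 0.52, adjusted p = 0.282).

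**Figure D1:**
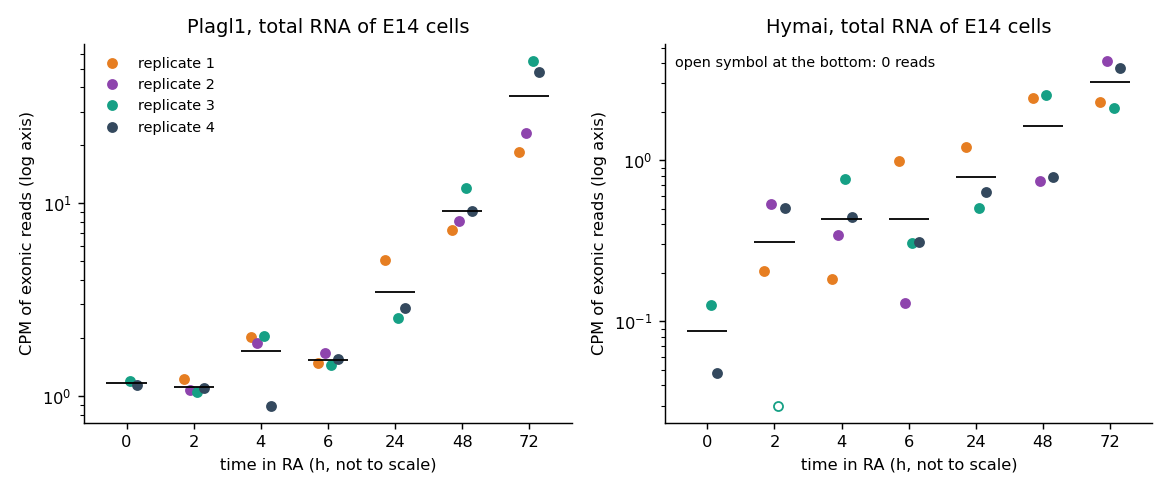
CPM of exonic reads (log axis) of Plagl1 and Hymai in each E14 library by hours of RA; colours are replicate numbers, black bars are group means and the open symbol is a library with 0 reads. Plagl1 stays between 0.893 and 2.06 CPM to 6 h and reaches 18.4 to 54.7 CPM at 72 h.

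Per length, Plagl1 was the more abundant of the pair. In the authors' deposited FPKM (fragments scaled for exon length and depth) Plagl1 was 0.125 ± 0.00389 (SD, n = 2) at 0 h, 0.375 ± 0.124 (n = 3) at 24 h, 1.00 ± 0.184 (n = 4) at 48 h and 4.72 ± 2.55 (n = 4) at 72 h. Hymai FPKM was 0.00961 ± 0.00612 at 0 h, 0.0874 ± 0.0360 at 24 h, 0.182 ± 0.104 at 48 h and 0.404 ± 0.112 at 72 h. The ratio of the mean FPKM of Plagl1 to that of Hymai was 12.96 at 0 h, where Hymai rests on 2 and 1 reads, and between 3.40 and 3.81 at 2 to 6 h. It was 4.29 at 24 h, 5.52 at 48 h and 11.7 at 72 h. How reads in the 180 shared bases were assigned is not given in the sources used here.

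In wild-type clone G4 the whole Plagl1 span, introns included, was counted in nuclear RNA. Before RA its 2 libraries held 7.92 and 10.1 CPM, and the libraries at 2, 4 and 6 h held 8.13 and 12.5 CPM, 6.30 and 9.10 CPM, and 7.71 and 11.9 CPM, so the first 4 times overlapped. The level was 28.5 and 50.4 CPM at 24 h, 229 and 295 CPM at 48 h and 443 and 539 CPM at 74 h, with no overlap between successive times. The fitted difference from 0 h in G4 was 4.37-fold at 24 h, 29.0-fold at 48 h and 54.2-fold at 74 h, given as a description because the rule for choosing the pair used these libraries. Levels of this table and of the E14 table were normalized separately and count different parts of the gene.

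In both deletion clones Plagl1 was far lower at every time, and it was higher late than early. The 2 E3 libraries held 0.677 and 1.26 CPM at 0 h, 1.85 and 2.94 CPM at 24 h, 7.38 and 11.0 CPM at 48 h and 24.1 and 27.0 CPM at 74 h. The 2 H12 libraries held 1.98 and 3.13 CPM at 0 h, 4.29 and 5.23 CPM at 24 h, 37.2 and 43.6 CPM at 48 h and 66.6 and 115 CPM at 74 h. At 2, 4 and 6 h E3 held 0.497 to 0.990 CPM and H12 0.985 to 2.48 CPM. At each of the 7 times, every deletion library was below both G4 libraries, and every E3 library was below both H12 libraries.

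Averaged over 24 to 74 h, the mean of E3 and H12 was 11.7-fold below G4 for Plagl1 (log2 -3.55) and 10.1-fold below for Hymai (log2 -3.34). Of all 15923 genes tested, 9.88% were called lower in this comparison, which the rule used. By time, Plagl1 in E3 was 16.4-fold below G4 at 24 h, 28.1-fold at 48 h and 19.2-fold at 74 h. In H12 it was 8.45-fold, 6.47-fold and 5.40-fold below G4 at these times. Within a clone, the level at 74 h was 26.0-fold above that at 0 h in E3 and 34.6-fold in H12, beside 54.2-fold in G4. The differences of E3 and of H12 from G4 share the G4 libraries.

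**Figure D2:**
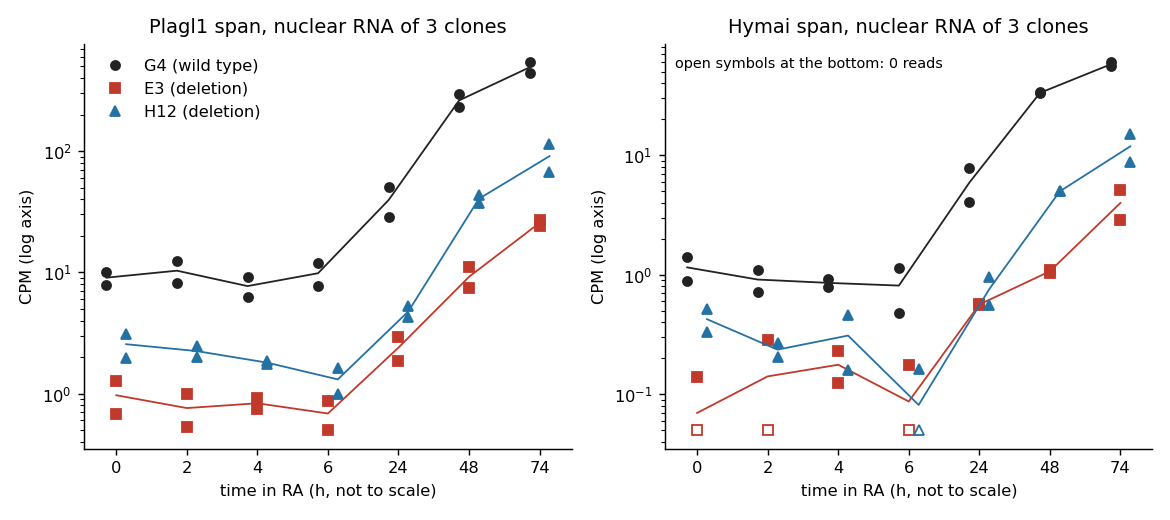
CPM (log axis) of reads in the Plagl1 and Hymai spans in each nuclear RNA library of clones G4, E3 and H12 by hours of RA; lines join the means of 2 libraries and open symbols are libraries with 0 reads. For Plagl1 both deletion clones lie below G4 at all 7 times, and all 3 clones are highest at 74 h.

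Before any RA the difference was already present, in untreated libraries that the rule did not use (they come from the same clones). The 2 G4 libraries held 7.92 and 10.1 CPM of Plagl1 and the 4 deletion libraries 0.677 to 3.13 CPM, without overlap. Plagl1 was 5.64-fold lower in the mean of E3 and H12 than in G4 (log2 -2.50, SE 0.34, adjusted p = 2.8e-05, edgeR), where 2.97% of all genes were called lower. Hymai, with 0 and 1 reads in E3, 2 and 4 in H12 and 7 and 11 in G4, was lower as well (log2 -2.56, SE 0.67, adjusted p = 0.0209, edgeR). In a fit of the untreated groups alone, Hymai fell under the filter on low counts. It was tested here only because later libraries, chosen by the rule, hold more of its reads, so its p-value is weak support. The Hymai call was lost without E3 replicate 1 (adjusted p = 0.0766), G4 replicate 1 (adjusted p = 0.378) or H12 replicate 2 (adjusted p = 0.0570). At 0 h the fold below G4 for Plagl1 was 9.22 in E3 and 3.45 in H12.

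Between the deletion clones, whose genotype label is the same, the levels are given without a test, since the rule used their libraries after RA. Plagl1 was 2.33-fold lower in E3 than in H12 over 0 to 6 h (log2 -1.22, SE 0.33), where 18.4% of genes were called lower by edgeR. Over 24 to 74 h it was 3.10-fold lower in E3 (log2 -1.63, SE 0.19), where 11.2% of genes were called lower. For Hymai the log2 difference was -0.90 over 0 to 6 h (SE 0.71) and -1.44 over 24 to 74 h (SE 0.29).

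Hymai levels in the clones followed those of the Plagl1 span that contains them. The G4 libraries held 0.895 and 1.41 CPM of Hymai at 0 h, 4.05 and 7.78 CPM at 24 h, 32.9 and 33.6 CPM at 48 h and 55.2 and 59.7 CPM at 74 h. At 74 h the E3 libraries held 2.85 and 5.13 CPM and the H12 libraries 8.73 and 15.0 CPM. In E3, 1 library each at 0, 2 and 6 h had 0 Hymai reads, as had 1 H12 library at 6 h.

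These Hymai values do not stand apart from Plagl1, because the nuclear tables count whole spans and each read in the Hymai span is also a read of the Plagl1 span. Over all times 12.05% of the 13328 Plagl1-span reads of G4 lay in the Hymai span (exact 95% binomial interval 11.5 to 12.6%, which covers counting error only). The share was 14.7% of 599 reads in E3 (interval 11.95 to 17.8%) and 13.0% of 2119 reads in H12 (interval 11.6 to 14.5%), beside the 12.4% of the length that Hymai takes up. Reads per kilobase inside the Hymai span were 0.971 times those of the rest of the Plagl1 span in G4, 1.22 times in E3 and 1.06 times in H12. Of the 4 libraries with at least 1000 reads in the Plagl1 span, all of G4, 3 had an interval that left out the length share, in both directions. At 48 h the share was 11.2% (interval 10.06 to 12.32%) in 1 library and 14.7% (interval 12.92 to 16.5%) in the other, so these libraries differed by more than counting error. At 74 h it was 11.1% (interval 10.1 to 12.14%) and 12.46% (interval 11.44 to 13.53%). How many of the reads belong to a separate Hymai transcript cannot be told from these counts.

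**Figure D3:**
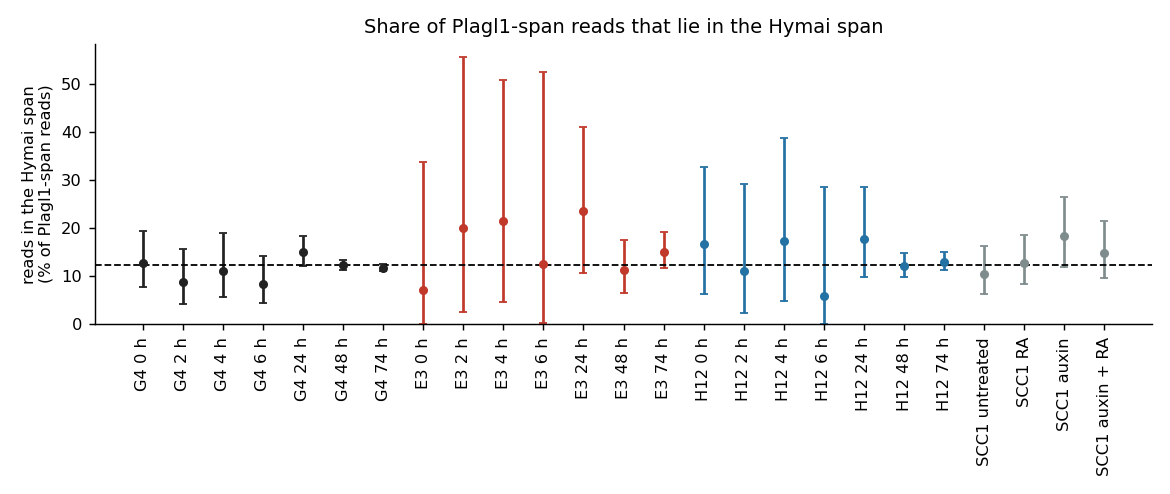
Percent of Plagl1-span reads that lie in the Hymai span, summed over the libraries of each nuclear RNA group, with exact 95% binomial intervals; the dashed line is the 12.4% of the Plagl1 span that Hymai covers. G4 at 74 h, the group with the most reads, stands at 11.8%, and early groups of E3 and H12 have wide intervals.

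In the SCC1-mAID line neither gene was called in any contrast of RA and auxin. The 3 untreated libraries held 9.78, 7.61 and 9.73 CPM of Plagl1, and those with 4 h of RA held 11.9, 14.3 and 10.4 CPM, all above the untreated ones. With auxin alone they held 6.05, 6.65 and 9.46 CPM, and with auxin and RA 8.41, 11.2 and 6.03 CPM, which overlapped the untreated libraries in both cases. By edgeR the log2 fold change of Plagl1 was 0.42 for RA against untreated (SE 0.24, unadjusted p = 0.0918, adjusted p = 0.557), where 2.57% of 14031 genes were called. It was -0.28 for auxin against untreated (SE 0.25, adjusted p = 0.699; 0.235% of genes called) and -0.47 for auxin and RA against RA (SE 0.24, unadjusted p = 0.0641, adjusted p = 0.824; 0.363% called). It was 0.23 for auxin and RA against auxin (SE 0.25, adjusted p = 0.691; 2.64% called). The interaction of auxin and RA was -0.19 (SE 0.34, adjusted p = 0.887); 0 genes were called for it by edgeR, and 974 had an unadjusted p under 0.05. With the authors' size factors the median of all genes moved to 0.18 for RA against untreated and to -0.33 for auxin and RA against RA, from -0.01 and 0.02 with TMM, and Plagl1 was at 0.65 and -0.88, still not called.

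Hymai in the SCC1-mAID line was read from 1 to 13 reads per library. Its level was 0.924 ± 0.678 CPM (SD, n = 3) in untreated cells and 1.57 ± 0.288 CPM after RA. It was 1.42 ± 0.499 CPM after auxin and 1.26 ± 0.618 CPM after auxin and RA, and the groups overlapped. The log2 fold change was 0.70 for RA (SE 0.55, adjusted p = 0.742, edgeR) and 0.54 for auxin (SE 0.56, adjusted p = 0.750, edgeR). Neither member had an unadjusted p under 0.05 in any of the 5 contrasts, and neither was called by DESeq2 (which gave no adjusted p for Hymai under auxin) or limma; at these read numbers only large changes of Hymai were detectable.

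**Figure D4:**
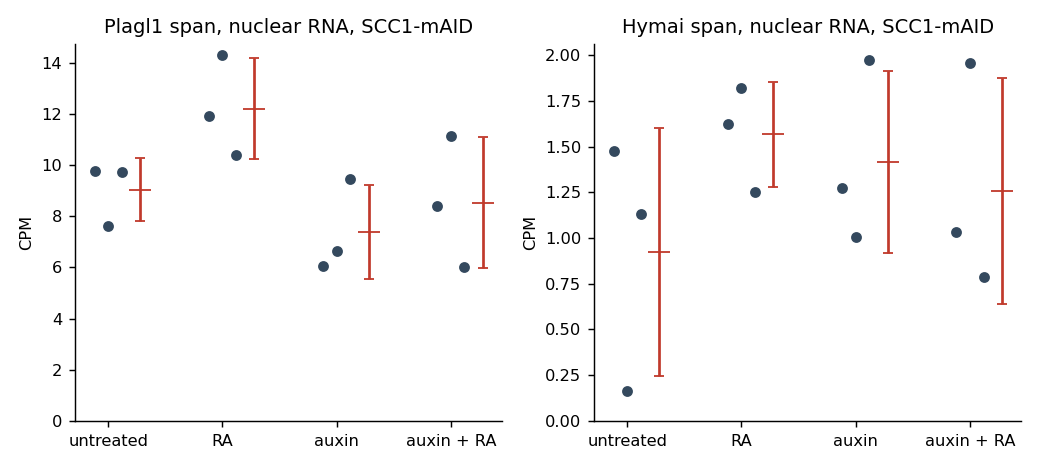
CPM of reads in the Plagl1 and Hymai spans in each SCC1-mAID library, by treatment with RA (4 h) and auxin (6 h); red marks are the mean and SD of 3 libraries. The 3 RA libraries lie at 10.4 to 14.3 CPM of Plagl1 and the untreated ones at 7.61 to 9.78 CPM.

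The genes around the pair differed much less between the clones than the pair itself. Of 12 genes within 1 Mb, all tested, 0 were called over 24 to 74 h by edgeR (1 had an unadjusted p under 0.05), beside 18.1% of all genes called in either direction, and their median log2 fold change was 0.05 against -0.00 for all genes. At 0 h 1 of the 12 was lower in the mean of the deletion clones, where 2.97% of all genes were. It was Utrn (utrophin; log2 -0.66, SE 0.13, adjusted p = 0.00211, edgeR). The closest gene on the left, Sf3b5, a splicing factor subunit that ends 81605 bases before Plagl1, differed by -0.03 (SE 0.23, adjusted p = 0.978) at 0 h and 0.04 (SE 0.14, adjusted p = 0.879) over 24 to 74 h. The closest on the right, Zc2hc1b, which begins 17949 bases after Plagl1, differed by 0.96 (SE 0.54, adjusted p = 0.410) and 0.31 (SE 0.32, adjusted p = 0.569). Taken clone by clone against G4, 0 of the 12 were called in E3 at 0, 24, 48 or 74 h. At these times only 0.452%, 0.427%, 2.15% and 4.36% of all genes were called in E3. In H12 2 were lower and 1 higher at 0 h, where 6.83% and 5.12% of all genes were. At 24 h 2 were lower in H12 (5.65% of all genes), and at 48 h 0 were called (14.7% of all genes). At 74 h 1 was lower and 1 higher in H12, where 12.9% and 12.2% of all genes were. Between E3 and H12 over 0 to 6 h, 4 of the 12 were higher in E3, where 18.9% of all genes were. Over 24 to 74 h 2 of the 12 were called, both higher in E3, where 9.57% of all genes were. These were Hivep2 (log2 0.64, SE 0.20, adjusted p = 0.0232) and Utrn (0.46, SE 0.09, adjusted p = 2.4e-04). In E14 cells 5 of 11 neighbours tested rose by 72 h, where 30.4% of all genes did, led by the actin regulator Phactr2 (4.03, SE 0.30, adjusted p = 7.7e-11), the SNARE protein gene Stx11 (1.82, SE 0.46, adjusted p = 0.00123) and the zinc finger gene Hivep2 (1.75, SE 0.31, adjusted p = 3.6e-05), while Sf3b5 was at 0.17 (SE 0.14, adjusted p = 0.303).

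**Figure D5:**
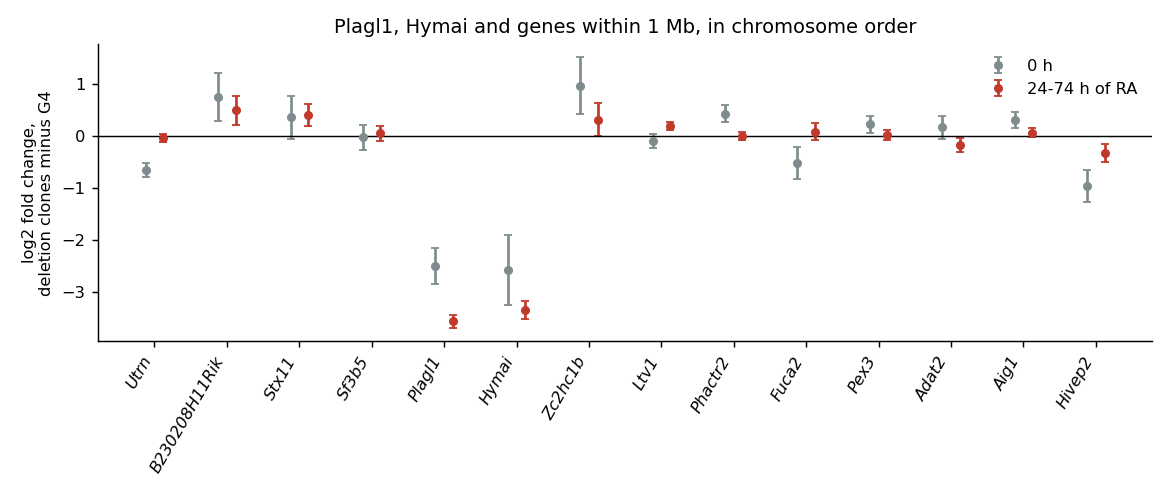
Log2 fold change (mean of E3 and H12 minus G4) with its SE for Plagl1, Hymai and the 12 genes within 1 Mb, in chromosome order, before RA and over 24 to 74 h of RA. Plagl1 and Hymai lie at -2.50 to -3.55, and Sf3b5 and Zc2hc1b on either side lie between -0.03 and 0.96.

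Among imprinted genes linked to Plagl1 in a shared network, 13 of 14 rose in E14 cells by 72 h and 0 fell, where 30.4% and 29.3% of all genes did. Their median log2 fold change was 2.45 against 0.00 over all genes tested. The largest rises were those of the growth factor Igf2 (4.69, SE 0.70, adjusted p = 1.4e-05, edgeR), the Notch-related ligand Dlk1 (4.62, SE 0.46, adjusted p = 5.2e-08) and the non-coding RNA H19 (4.32, SE 0.43, adjusted p = 4.4e-08). Meg3, the remaining member, was at 0.18 (SE 0.24, adjusted p = 0.524). In the untreated clones 3 of the 14 were lower in the mean of the deletion clones, namely Sgce (a sarcoglycan; log2 -1.89, SE 0.16, adjusted p = 1.6e-09), Igf2 (-1.77, SE 0.22, adjusted p = 5.2e-06) and Grb10 (an adaptor that dampens insulin signalling; -1.33, SE 0.14, adjusted p = 2.6e-07), and 1 was higher, Gnas (2.97% of all genes were called lower and 1.31% higher). In the mean of the deletion clones over 24 to 74 h 5 were lower and 2 higher, beside 9.88% and 8.26% of all genes, with a median of -0.09. H19 was higher (1.88, SE 0.18, adjusted p = 3.1e-09), and Dcn (the matrix proteoglycan decorin, also on the mesenchyme marker list; -1.14, SE 0.26, adjusted p = 0.00166) and Sgce (-1.08, SE 0.08, adjusted p = 1.6e-11) were lower. Between the deletion clones 6 of the 14 were higher and 2 lower in E3 over 24 to 74 h, where 9.57% and 11.2% of all genes were called, and H19 (-2.92, SE 0.17, adjusted p = 4.1e-14) and Igf2 (2.38, SE 0.13, adjusted p = 3.2e-14) differed the most.

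Of 8 reported targets of Plagl1, 6 were expressed enough to be tested. In E14 cells at 72 h 3 rose and 1 fell, where 30.4% and 29.3% of all genes did. These were Apaf1, a cell death factor (0.98, SE 0.19, adjusted p = 6.2e-05), Slc2a4, a glucose transporter (0.87, SE 0.26, adjusted p = 0.00500), the transcription factor Tcf4 (0.50, SE 0.16, adjusted p = 0.00766), and the cytokine signalling inhibitor Socs3, which fell by 1.45 (SE 0.17, adjusted p = 7.3e-08, edgeR). In the untreated clones 0 of the 6 were called by edgeR (0 had an unadjusted p under 0.05), where 4.28% of all genes were. In the mean of the deletion clones over 24 to 74 h 2 were lower, Socs3 (-0.64, SE 0.16, adjusted p = 0.00528, edgeR) and Tcf4 (-0.32, SE 0.07, adjusted p = 0.00238), and Apaf1 was higher (0.19, SE 0.07, adjusted p = 0.0488). Of all genes 9.88% were called lower and 8.26% higher there. By clone against G4, 0 of the 6 were called at 24 h in either clone (0.427% of all genes in E3 and 9.92% in H12). In E3 2 were higher at 48 h, and 1 was higher and 1 lower at 74 h. There 0.929%, 1.41% and 2.95% of all genes were so called. In H12 1 was lower at 48 h and 2 at 74 h, where 6.46% and 12.9% of all genes were. Of the 2 relatives of Plagl1 in the PLAG family, Plagl2 rose by 72 h in E14 cells (1.22, SE 0.19, adjusted p = 4.8e-06, edgeR). Plagl2 was slightly lower in the mean of the deletion clones over 24 to 74 h (-0.28, SE 0.07, adjusted p = 0.00656). Plag1 was not called in either (0.19, SE 0.16, adjusted p = 0.323, and -0.16, SE 0.10, adjusted p = 0.260).

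Of 11 genes that keep or remove imprints and DNA methylation, 8 fell and 1 rose in E14 cells by 72 h, beside 29.3% and 30.4% of all genes. The largest falls were those of the methylcytosine oxidase Tet1 (-3.65, SE 0.21, adjusted p = 1.6e-12), the methyltransferase cofactor Dnmt3l (-2.51, SE 0.26, adjusted p = 5.7e-08) and the methyltransferase Dnmt3b (-2.29, SE 0.17, adjusted p = 5.5e-11), and Tet3 was the member that rose (2.14, SE 0.24, adjusted p = 5.4e-08). At 0 h 1 of the 11 differed between the mean of the deletion clones and G4, where 4.28% of all genes were called in either direction. It was Dnmt3l, higher in that mean (0.84, SE 0.24, adjusted p = 0.0401, edgeR). By clone at 0 h, 0 were called in E3 (0.452% of all genes). In H12 2 were higher and 1 lower, where 5.12% and 6.83% of all genes were. In the mean of the deletion clones over 24 to 74 h 3 were higher, Dnmt3l (1.48, SE 0.16, adjusted p = 1.2e-07, edgeR), Zfp57 (0.50, SE 0.10, adjusted p = 8.1e-04) and Dnmt3b (0.31, SE 0.07, adjusted p = 0.00216), and 1 was lower, Tet3, beside 8.26% and 9.88% of all genes. By clone against G4, 0 were called in E3 at 24 and 48 h (0.427% and 2.15% of all genes). At 74 h 1 was higher in E3 (1.41% of all genes). In H12 2, 4 and 3 were higher at 24, 48 and 74 h, where 4.26%, 8.2% and 12.2% of all genes were. At 48 h 1 was lower in H12 (6.46% of all genes). With the authors' own size factors 6 of the 11 fell and 2 rose in E14 cells by 72 h.

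The genes most like Plagl1 over the 42 clone libraries, by Pearson correlation of log2 CPM, were Mprip (r = 0.937), Poc1b (0.932), Maml1 (0.919), Llgl1 (0.914) and the imprinted gene Nnat (0.913), against a median of -0.01 over all genes. On chromosome 11 lie Mprip (59662495 to 59780860), Llgl1 (60699690 to 60714188) and Maml1 (50255635 to 50292336). Poc1b lies on chromosome 10 from 99107171 to 99197988, and Nnat on chromosome 2 from 157560078 to 157562525. These libraries share clones and times, and the genes were picked for likeness, so the correlations are a description. Against G4 over 24 to 74 h the fitted log2 fold change in the deletion clones was -2.59 for Nnat, -0.91 for Poc1b, -0.73 for Llgl1, -0.60 for Mprip and -0.44 for Maml1, all smaller in size than that of Plagl1. Over the 25 E14 libraries the most alike were Ptprd (r = 0.972), Tmem132c (0.969), Ahcyl1 (0.967), Gas1 (0.967) and Zc3hav1l (0.966), and no gene was among the first 5 in both sets.

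Cell type markers moved along with the clones and times. In E14 cells at 72 h 7 of 8 embryonic stem cell markers fell and 9 of 10 extra-embryonic endoderm markers rose, where 29.3% and 30.4% of all genes did. Of 6 neural progenitor markers tested there 5 rose and 0 fell, and of 7 mesenchyme markers 5 rose and 1 fell. Of 5 mesoderm markers tested 1 rose and 0 fell, and of 4 trophoblast markers 1 rose and 1 fell. The median log2 fold change was 3.85 for endoderm, 4.42 for neural and 2.67 for mesenchyme markers. In the mean of both deletion clones over 24 to 74 h 7 of the 10 endoderm markers were higher than in G4 and 0 lower (8.26% of all genes were called higher). Of 6 neural progenitor markers tested 5 were lower and 0 higher (9.88% of all genes lower). Taken clone by clone at 74 h, 10 of 10 endoderm markers were called higher in H12 and 0 in E3 (2 had an unadjusted p under 0.05, edgeR), where 12.2% and 1.41% of all genes were. At the same time 4 neural markers were lower in H12 and 2 in E3, where 12.9% and 2.95% of all genes were. The summed level of the endoderm markers at 74 h was 1956 to 2458 CPM in G4, 2056 to 2517 CPM in E3 and 14567 to 16313 CPM in H12. That of the neural markers was 676 to 783 CPM in G4, 471 to 497 CPM in E3 and 362 to 620 CPM in H12. The endoderm markers Sox17 and Sox7 were at 0 in at least 1 clone library. The matrix genes Lama1, Col4a1 and Sparc weigh most in the endoderm sums. They reached 7130, 6149 and 2202 CPM in a clone library, against 112 CPM for Gata6 and 34.0 CPM for Sox17. How these sums relate to the level of Plagl1 was not tested.

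Of the other marker lists over 24 to 74 h, 4 of 8 stem cell markers were higher in the mean of the deletion clones and 1 lower. In the same mean 2 of 4 mesoderm markers were lower, and 2 of 7 mesenchyme markers were lower and 1 higher. Of the trophoblast markers 0 of 3 were called by edgeR (2 had an unadjusted p under 0.05), beside 8.26% of all genes higher and 9.88% lower. By clone, 6 stem cell markers were higher and 1 lower in H12 at 74 h, where 12.2% and 12.9% of all genes were. In E3 0 stem cell markers were called at 24, 48 or 74 h (1, 1 and 3 had an unadjusted p under 0.05, edgeR). Only 0.427%, 2.15% and 4.36% of all genes were called in E3 at these times. Of the mesenchyme markers, 4 were lower in H12 at 24 h and 4 at 48 h (5.65% and 6.46% of all genes lower), and 5 were higher in H12 at 74 h. In E3 3 of them were higher at 48 h (0.929% of all genes higher) and 1 at 74 h.

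Before RA 0 of 10 endoderm, 0 of 8 stem cell and 0 of 6 neural markers were called between the mean of the deletion clones and G4 by edgeR (3, 0 and 2 had an unadjusted p under 0.05), where 4.28% of all genes were. Their median log2 fold changes were 0.23, -0.08 and -0.73, against 0.00 over all genes. With 2 libraries per clone, an uncalled list does not show that the clones were alike. Of the mesenchyme markers 2 of 7, Col1a1 and Col1a2, were lower (2.97% of all genes were), and the median of that list was -1.64. In E3 alone 0 markers of these 4 lists were called against G4 (1, 1, 1 and 0 had an unadjusted p under 0.05 among endoderm, stem cell, neural and mesenchyme markers, edgeR), where 0.452% of all genes were. In H12 alone 2 neural markers, 1 endoderm, 1 mesoderm and 3 mesenchyme markers were lower and 1 endoderm and 1 mesenchyme marker higher, where 6.83% and 5.12% of all genes were called lower and higher. The summed neural markers at 0 h were 26.4 to 29.8 CPM in H12, 38.6 to 106 CPM in E3 and 69.4 to 135 CPM in G4. The part of the cell type markers in the levels of Plagl1 and Hymai was not tested.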

How the data were processed

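The deposited tables give, per the file headers, size-factor-scaled read signal per transcript on mm10 (exonic reads for E14, whole spans in nuclear RNA for the clones and the SCC1-mAID line) and, for E14, the authors' FPKM. The submitters' processing notes name STAR, Bowtie2, SAMtools and DESeq2. The kit was directional, per the labels' protocols, and Drosophila cells were added for calibration. Whether counting used strand, and how the size factors were made, is not given in the sources used here.

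The deposited signal was taken as reads divided by 1 factor per library, and whole counts were recovered from it (in each library at least 99.9966% of values came within 0.1 reads of a whole number), and of a gene's transcript rows the 1 with the largest average fraction of a library's reads was used. In SCC1-mAID 5291 rows were named from RefSeq. Rows still without a gene name (81 of 29076 in E14, 81 of 29039 in the clones, 1040 of 35326 in SCC1-mAID) were kept under their transcript identifier. The totals of genes can therefore include them. Each table was fitted separately with edgeR 4.0.16 (R 4.3.3; quasi-likelihood, robust, TMM, filterByExpr, Benjamini-Hochberg over all genes tested) with all of its groups. SEs were derived from the log2 fold change and the F statistic. The fits were tested on simulated data. Alternatives used DESeq2 1.42.0, limma 3.58.1, the authors' factors and other filters. Of each gene list at most the 3 called genes of largest change are named, with the nearest neighbour on each side of Plagl1 and the 5 genes most correlated with it (log2 CPM, prior count 2); Gnas, Tet3, Tcf4, Col1a1, Col1a2, Apaf1, Meg3 and Plag1 are also named where a count leaves few genes, chosen after their values were seen. The members and lists were chosen with earlier results of these data known. The E14 replicates are biological per the series text; elsewhere nothing says that libraries of a group came from separate cultures, so p-values measure the spread between libraries, which may be technical. Columns of other samples numbered 0.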

Additional observations from a re-analysis of the deposited data

Results flagged for a closer look

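In E14 cells at 4 h of RA, replicate 4 held 0.893 CPM of Plagl1, from 8 reads, and the other 3 libraries held 1.89 to 2.06 CPM. Its gap to the nearest library made up 0.855 of the range of the group, above Dixon's 95% limit for 4 libraries. It was 1 of 10 groups of 4 libraries tested over both genes, and chance flags about 1 in 20 groups.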

How the results depend on the processing

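Of 616 values of Plagl1 and Hymai under the alternatives, 593 kept their direction and their side of the threshold, 17 lost a call and 6 changed sign; all 6 were uncalled. The difference between the deletion clones and G4 over 24 to 74 h ran from -3.67 to -3.39 for Plagl1 and from -3.46 to -3.12 for Hymai over 27 alternatives each, and the untreated difference of Plagl1 from -2.76 to -2.31, called in all 15. With replicates 3 and 4 alone, the only numbers the untreated E14 group has, Plagl1 from 6 to 24 h was 0.83 (adjusted p = 0.168, edgeR) and Hymai at 24 h against 0 h was 2.56 (adjusted p = 0.0812); limma-trend gave 1.47 for the latter (adjusted p = 0.0582). Leaving out 1 library at a time, with a lone library assumed to vary like the other groups, gave these ranges: 0.79 to 1.39 for Plagl1 from 6 to 24 h, 1.17 to 1.77 from 24 to 48 h and 1.17 to 1.77 at 24 h against 0 h; 2.49 to 3.61 for Hymai at 24 h against 0 h; and -3.72 to -2.13 for Hymai in the untreated clones. For auxin and RA against auxin the same gave -0.54 to 0.28 for Hymai and -0.0053 to 0.44 for Plagl1, and for the interaction of Plagl1 -0.43 to 0.023. With the authors' size factors 2 PLAG family genes in place of 1, and 2 imprint-keeping genes in place of 1, were called higher at 72 h in E14 cells, and the genes called over the whole table went from 12.5% to 25.8% between 48 and 72 h. In the SCC1-mAID table the same went from 2.57% to 0.513% for RA, with 72.0% and all of the calls higher, from 0.235% to 0.0214% for auxin (42.4% and 66.7% higher), from 0.363% to 0.0285% for auxin and RA against RA (11.8% and 50.0% higher) and from 2.64% to 0.335% against auxin (69.2% and 89.4% higher). The cause of these shifts was not tested. Fitting only the groups compared gave Hymai a value in 4 of 18 comparisons, since its reads fell under the filter in the rest, and DESeq2 gave no adjusted p for Hymai in 2.

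The main fits did not pair libraries by replicate number. Same-numbered deviations correlated over 0.1 in 28 of 67, 10 of 18 and 180 of 420 pairs in E14, SCC1-mAID and clones. However, 19 of 25, 8 of 12 and 38 of 42 libraries correlated best with their own number. Libraries of the same number may therefore share variation that the main fits leave out. With the number as a replicate block, Plagl1 at 2 h against 0 h in E14 was 0.12 in place of -0.06, both uncalled, and no call of Plagl1 or Hymai changed. Depth limits Hymai, with 0 to 13 reads per E14 library.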
